A study of Homo sapiens with 12 samples.

Results

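The genes described here are 9 markers and regulators of lung and endoderm identity, NKX2-1, SFTPB, SFTPD, ABCA3, NAPSA, FOXA1, FOXA2, GATA6 and SOX9, taken by gene symbol from a table of 60623 genes. All 9 symbols were found, each as 1 gene. Their mRNA was measured in 12 libraries of A549 cells, an established line grown from a human lung adenocarcinoma. All lines were infected with lentivirus and selected with hygromycin at 200 µg/ml for 72 h. The V line carried the empty vector pLV-EF1a-IRES-Hygro. The other lines carried HA-tagged aryl hydrocarbon receptor (AHR, a ligand-activated transcription factor): wild type in the WT line, AHR with the S489A change in the SA line, which cannot be phosphorylated at that serine, and AHR with the S489D change in the SD line, which mimics the phosphorylated serine. Each construct was 1 infected line with 3 libraries called biological replicates, so a difference between constructs cannot be told apart from a difference between infected lines, and the p-values measure the spread between libraries of a line.

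Lung epithelium arises from the foregut endoderm. FOXA1 and FOXA2 are forkhead pioneer factors that open chromatin in endoderm-derived tissues, and GATA6 is a zinc-finger factor needed in early endoderm and in lung. NKX2-1 is the homeodomain factor that specifies the lung bud and drives surfactant genes in alveolar type II cells, while SOX9 marks the tips of the branching airways. SFTPB is the surfactant protein needed for a working surface film, SFTPD is a secreted collectin of innate defence, ABCA3 pumps surfactant lipid into lamellar bodies, and NAPSA is an aspartic protease that processes the SFTPB precursor and is used with NKX2-1 to recognise lung adenocarcinoma.

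Libraries held between 7844045 and 11765576 counts, so 3 counts, the most that a gene seen at 0 could plausibly hide, were worth 0.255 to 0.383 CPM (counts scaled to a common library size), for counting error only. AHR was at 65.8 to 74.3 CPM in the V libraries and at 202 to 285 CPM in the libraries of the AHR lines. This told V from the AHR lines as labelled. It could not check the labels WT, SA and SD against each other, since SA (219 to 230 CPM) and SD (202 to 220 CPM) overlapped. Counts per gene do not show the S489A and S489D changes. The epithelial markers KRT7, KRT8, KRT18 and CDH1 were abundant, while EPCAM was at 0.381 to 1.75 CPM. All 3 endothelial markers were at 3 counts or fewer in every library, as were 3 of 4 blood cell markers and 2 of 4 fibroblast markers; the summed blood cell markers, nearly all CD14, were at 11.4 to 22.5 CPM and the summed fibroblast markers, mostly COL1A1, at 5.72 to 13.5 CPM.

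NKX2-1, SFTPB and SFTPD were silent in all 4 lines, taking silent as 3 counts or fewer in every library. NKX2-1 (chromosome 14, 36516392 to 36521149, minus strand, GRCh38) had 3 counts in all, 2 in V replicate 1 and 1 in SD replicate 1, and none in the other 10 libraries. SFTPB (chromosome 2, 85657314 to 85668741, minus strand) had 5 counts, 3 in SA replicate 2 and 2 in SD replicate 1. SFTPD (chromosome 10, 79937740 to 79982614, minus strand) had 10 counts spread over 5 libraries, with 3 in WT replicate 1 as its highest. With both groups of every comparison at or under 3 counts a library, no fold change is given for them. Part of NKX2-1 is shared with other annotated genes: 1033 of its exonic bases lie in ENSG00000257520 and 402 in NKX2-1-AS1, and both of these genes were at 0 in every library.

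The other 6 genes were detected in every library and passed the filter on low counts in every comparison. Levels were put on a per-length scale, TPM (the share of transcripts after division by gene length), computed over each gene's exons, so that genes could be ordered. FOXA2 was highest with a mean of 59.4 TPM over the 12 libraries, and 2457 genes of the table had a higher mean. ABCA3 followed at 32.3 TPM and SOX9 at 23.6 TPM. The library ranges of these 3 genes did not meet: 52.0 to 71.4 TPM for FOXA2, 29.4 to 34.3 TPM for ABCA3 and 19.7 to 27.8 TPM for SOX9. FOXA1 at 3.76 TPM, GATA6 at 3.63 TPM and NAPSA at 3.40 TPM formed a lower set whose ranges overlapped, so their order among themselves is not resolved. Of the pair of forkhead genes, FOXA2 was therefore far more abundant than FOXA1 in every line.

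**Figure D1:**
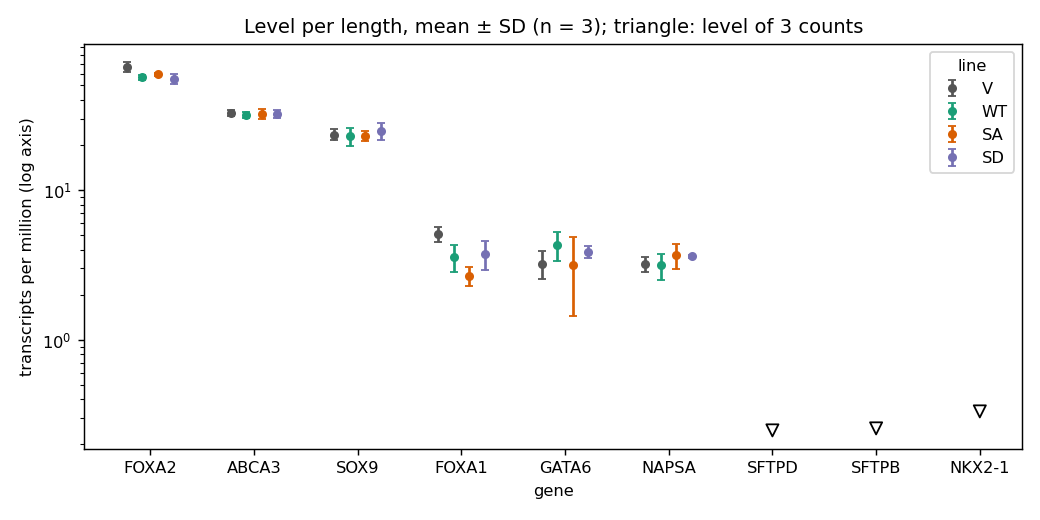
Level of each of the 9 genes on a per-length scale (TPM, log axis), by A549 line; points are means of 3 libraries, bars are SD, and open triangles mark the level that 3 counts would give for the silent genes. FOXA2, ABCA3 and SOX9 lie well above FOXA1, GATA6 and NAPSA, and SFTPD, SFTPB and NKX2-1 have line means below their triangles.

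Stretches just upstream of annotated starts are shown for 3 of the genes at different levels: silent NKX2-1, low FOXA1 and abundant ABCA3. RefSeq promoter windows (GRCh38.p14) matched 7 of the 9 genes with 10 starts in all; FOXA2 and SOX9 had no entry. Each stretch runs 5′ to 3′ on the gene's own minus strand and stops before the first exon base of that gene. The stretches of NKX2-1 and FOXA1 lie inside the span of the gene in the deposited table, upstream of an internal start and outside its exons, and that of ABCA3 lies just outside the gene. Capitals mark matches, on either strand, to 4 sets of letters: GCGTG for the AHR core element, TGTTTAC or TGTTTGC for forkhead factors, AGATAA or TGATAA for GATA factors, and CTCAAG for NKX2-1.
NKX2-1, chr14:36520287-36520482: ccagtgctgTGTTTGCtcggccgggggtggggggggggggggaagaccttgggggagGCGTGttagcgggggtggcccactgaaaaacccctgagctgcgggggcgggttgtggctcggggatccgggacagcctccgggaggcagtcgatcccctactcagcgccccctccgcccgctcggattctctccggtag
FOXA1, chr14:37595349-37595499: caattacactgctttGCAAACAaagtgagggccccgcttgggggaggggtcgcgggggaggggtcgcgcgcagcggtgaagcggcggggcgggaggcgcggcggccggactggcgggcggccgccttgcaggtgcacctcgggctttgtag
ABCA3, chr16:2340747-2340978: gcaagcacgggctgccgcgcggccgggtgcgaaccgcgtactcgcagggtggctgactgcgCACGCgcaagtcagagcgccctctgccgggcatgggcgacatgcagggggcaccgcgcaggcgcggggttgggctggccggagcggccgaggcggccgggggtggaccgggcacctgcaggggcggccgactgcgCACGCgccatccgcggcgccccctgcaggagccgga

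In the 250 bases before the start, the AHR core letters occurred at 3 of the 10 member starts (in ABCA3, NKX2-1 and SFTPB), against 32.2% of all 35116 RefSeq promoters. ABCA3 held them at 189 and at 54 bases before the start. Forkhead letters occurred at 3 of 10 starts (1 of FOXA1 and both of NKX2-1), against 6.09% of all promoters; the FOXA1 match began 235 bases before the start. GATA letters occurred at 1 start of NKX2-1, against 14.6%, and the NKX2-1 letters at 2 starts, in FOXA1 and NAPSA, against 10.4%. With 10 starts these counts are a description of the letters in these windows and no more.

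FOXA1 (chromosome 14, 37589552 to 37596059, minus strand) was lower in the AHR lines than in the V line. Its level was 6.07, 7.32 and 6.10 CPM in the V libraries, 4.45, 5.44 and 3.56 CPM in WT, 3.41, 2.90 and 3.80 CPM in SA, and 3.70, 5.15 and 5.52 CPM in SD. Every library of each AHR line lay below every V library, and the SA libraries were the lowest as a group, with WT replicate 3 and SD replicate 1 inside their range. How many of all tested genes separate from V in this way was not counted, here or for the genes below. From 6.50 ± 0.71 CPM in V (SD, n = 3) the mean was 3.37 ± 0.45 CPM in SA, a log2 fold change of -0.95 (SE 0.23, adjusted p = 0.0109, edgeR). The same change in WT was -0.52 (SE 0.23, adjusted p = 0.225) and in SD -0.43 (SE 0.22, adjusted p = 0.316), neither of which passed the test. With the 3 AHR lines averaged against V, FOXA1 fell by 0.63 on the log2 scale (SE 0.18, adjusted p = 0.0273). The gene was counted by only 32 to 69 reads per library, and its calls depended on single libraries: the SA call was lost without V replicate 2 (adjusted p = 0.0611) or SA replicate 2 (adjusted p = 0.0625), and the call over the AHR lines was lost without V replicate 1 (0.0742), V replicate 2 (0.153) or V replicate 3 (0.0742).

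The difference in FOXA1 between the AHR lines themselves did not pass the test. SD against SA was 0.51 on the log2 scale (SE 0.25, unadjusted p = 0.0560, adjusted p = 0.596), WT against SA was 0.42 (SE 0.26, adjusted p = 0.758), and SD against WT was 0.09 (SE 0.25, adjusted p = 0.938). The larger value of SA against V is thus not shown to differ from those of WT and SD.

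FOXA2 (chromosome 20, 22581005 to 22585455, minus strand) was also lower in the AHR lines, by a smaller amount. It was at 49.1, 51.6 and 55.5 CPM in V, 43.8, 42.1 and 45.7 CPM in WT, 46.7, 45.5 and 46.2 CPM in SA, and 41.9, 42.4 and 47.3 CPM in SD. No library of an AHR line reached the lowest V library, although SD replicate 3 came within a few CPM of it. Averaged over the AHR lines the gene fell by 0.22 on the log2 scale (SE 0.06, adjusted p = 0.0203), which is a 1.17-fold lower level. Line by line the test was not passed: -0.25 in WT (SE 0.08, adjusted p = 0.0585), -0.24 in SD (SE 0.08, adjusted p = 0.0831) and -0.18 in SA (SE 0.07, adjusted p = 0.177). The call over the AHR lines was lost without V replicate 2 (adjusted p = 0.0636) or V replicate 3 (0.210), the SD comparison passed without SD replicate 3 (0.0483), and WT passed when at least 10 counts were required in every library (0.0449).

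The genes whose profile over the 12 libraries lay nearest to FOXA1, by root mean square difference of centred log2 CPM among 15452 other genes, were VLDLR (0.201) and MGAT4A (0.203). VLDLR, a lipoprotein receptor, was at 48.9 ± 1.2 CPM in V (SD, n = 3) and 33.5 ± 3.1 CPM in SA, and MGAT4A, a Golgi glycosyltransferase, at 4.57 ± 0.50 and 2.62 ± 0.28 CPM. For FOXA2 the nearest genes were WWC1 (0.0560) and KIFC3 (0.0560). Both distances for FOXA1 were more than the distances for FOXA2, whose own profile varied less (0.116 against 0.355). All these profiles share the libraries and their depth.

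**Figure D2:**
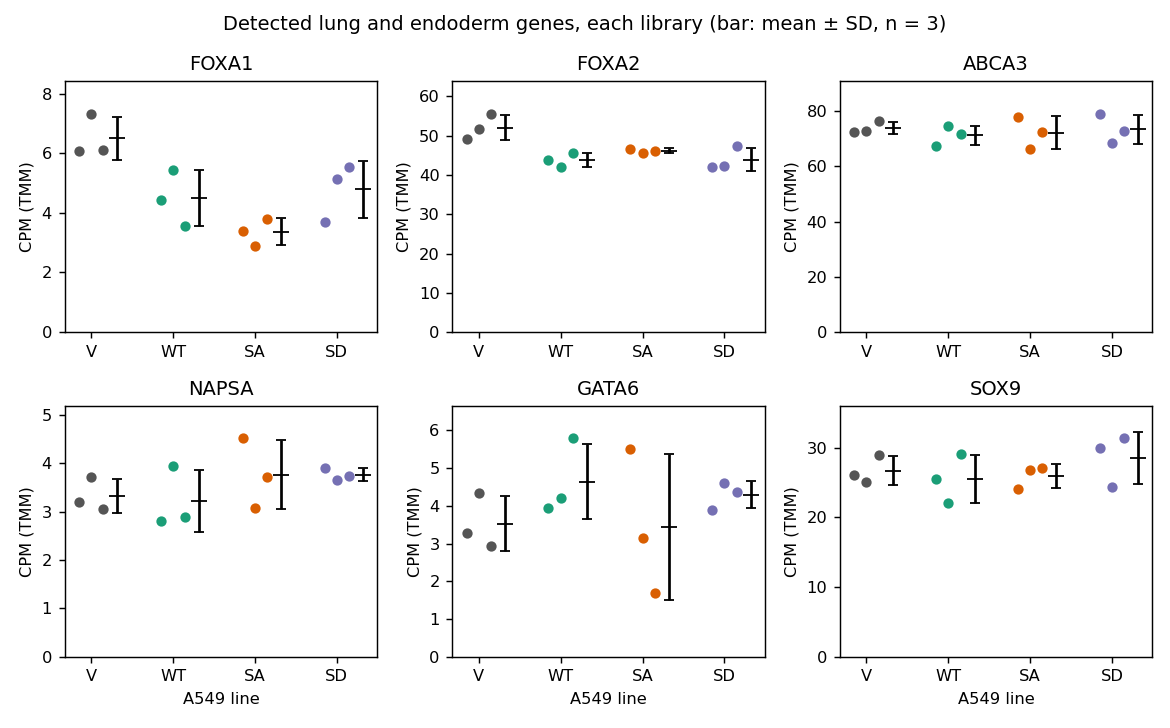
CPM of the 6 detected genes in each library (points) of the V, WT, SA and SD lines, with the mean and SD of 3 libraries beside them (bars); axes start at 0. All V points of FOXA1 and FOXA2 lie above all points of the AHR lines, while the points of ABCA3, NAPSA, GATA6 and SOX9 overlap between lines.

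Of the 5 epithelial markers, 4 were called lower over the AHR lines against V, where FOXA1 and FOXA2 were called lower too. In that comparison 7.79% of the 15453 tested genes were called, 586 of them lower. KRT8 and KRT18, the keratin pair of simple epithelia, had log2 fold changes over the AHR lines against V of -0.37 (SE 0.03, adjusted p = 1.57e-08) and -0.41 (SE 0.03, adjusted p = 1.88e-09), and CDH1, the epithelial cadherin, of -0.54 (SE 0.05, adjusted p = 2.36e-08). These 3 calls held with any 1 library left out. Among the AHR lines the means of KRT8 and KRT18 were lowest in SD. The mean of CDH1 was highest in SD, at 126 CPM against 112 CPM in WT and 112 CPM in SA. KRT7 was at a mean of 1659 CPM in V, 1641 CPM in WT, 1559 CPM in SA and 1399 CPM in SD. Its call over the AHR lines (-0.12, SE 0.04, adjusted p = 0.0435) was lost without V replicate 1 or 2, WT replicate 2 or 3, SA replicate 2 or 3, or SD replicate 2, at up to 0.239. KRT7 was called in SD against V (adjusted p = 0.00412), lost without V replicate 1 or V replicate 2, at up to 0.0590, and in SD against WT (-0.23, adjusted p = 0.0309), lost without any 1 of the WT libraries or SD replicate 2, at up to 0.188. EPCAM was not called over the AHR lines (-0.62, SE 0.37, adjusted p = 0.374). The 5 epithelial markers summed to 7620 to 8017 CPM in V and 5766 to 6517 CPM in the AHR lines. COL1A1 of the fibroblast list was lower too (-0.63, adjusted p = 0.00351, lost without V replicate 1 at 0.0714), and CD14 was higher (0.41, adjusted p = 0.0294, lost without any 1 of the V libraries, at up to 0.178). In bulk RNA, fewer cells of a kind and less RNA per cell cannot be told apart, and the part of these markers in the FOXA1 and FOXA2 values was not tested.

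ABCA3 (chromosome 16, 2275881 to 2340746, minus strand) kept a similar level in the 4 lines. It was at 72.5, 72.7 and 76.3 CPM in V, 67.5, 74.5 and 71.6 CPM in WT, 78.0, 66.3 and 72.3 CPM in SA, and 79.0, 68.3 and 72.8 CPM in SD, with all lines overlapping. Against V the log2 fold change was -0.05 in WT (SE 0.07), -0.03 in SA (SE 0.07) and -0.01 in SD (SE 0.07), with adjusted p of 0.774, 0.841 and 0.975. The surfactant lipid transporter was thus the only type II gene among the 4 alveolar members with more than 45 counts in a library, and it was measured from 531 to 849 counts.

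NAPSA (chromosome 19, 50358477 to 50365830, minus strand) was low and did not separate the lines. It was at 3.19, 3.71 and 3.05 CPM in V, 2.80, 3.95 and 2.89 CPM in WT, 4.51, 3.07 and 3.71 CPM in SA, and 3.90, 3.65 and 3.74 CPM in SD. The log2 fold change against V ranged from -0.03 in WT (SE 0.29, adjusted p = 0.974) to 0.18 in SD (SE 0.27, adjusted p = 0.801). NAPSA shares 1182 exonic bases, 33% of its exons, with NR1H2 on the opposite strand, a nuclear receptor gene with 723 to 1124 counts per library. Whether counting used strand is not stated, so the 22 to 45 counts of NAPSA cannot be told apart from reads of NR1H2.

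GATA6 (chromosome 18, 22169392 to 22202528, plus strand) was low and variable, most of all in the SA line. It was at 3.29, 4.35 and 2.95 CPM in V, 3.94, 4.21 and 5.79 CPM in WT, 5.51, 3.16 and 1.68 CPM in SA, and 3.90, 4.61 and 4.36 CPM in SD. SA held both a library near the top and the lowest library of all 12. No comparison passed the test: WT against V was 0.40 (SE 0.27, adjusted p = 0.489), SD against V 0.28 (SE 0.26, adjusted p = 0.645), SA against V -0.05 (SE 0.33, adjusted p = 0.959), and WT against SA 0.45 (SE 0.32, adjusted p = 0.790). Its overlapping antisense genes GATA6-AS1 and ENSG00000266283 had at most 6 and 3 counts.

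SOX9 (chromosome 17, 72121020 to 72126416, plus strand) was at 26.1, 25.0 and 29.0 CPM in V, 25.5, 22.1 and 29.1 CPM in WT, 24.0, 26.8 and 27.1 CPM in SA, and 29.9, 24.3 and 31.4 CPM in SD. All lines overlapped. SD had the highest mean, 28.5 ± 3.7 CPM (SD, n = 3), but SD against V was 0.10 (SE 0.11, adjusted p = 0.696) and SD against WT 0.17 (SE 0.12, adjusted p = 0.646).

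Counted over the 6 tested genes, 1 was called in SA against V (FOXA1), where 7.17% of the 14913 tested genes were called, and 2 over the AHR lines against V (FOXA1 and FOXA2), where 7.79% were called. In WT against V, with a background of 5.24%, edgeR called 0 of 6, with 2 at an unadjusted p under 0.05 and 0 by DESeq2. In SD against V, with 5.41%, edgeR called 0, with 1 under 0.05 unadjusted and 0 by DESeq2. Between the AHR lines edgeR called 0 of 6 in SD against WT (background 0.708%), SD against SA (0.22%) and WT against SA (0.0803%), and 0 were under 0.05 unadjusted. DESeq2 called none there either, but it gave an adjusted p to only some of these genes. They were FOXA2 and ABCA3 in SD against WT, and FOXA2, SOX9 and ABCA3 in SD against SA. In WT against SA none of the genes got one, so DESeq2 could not call the others. Without V replicate 2 the count was 0 both for SA against V and over the AHR lines, without V replicate 1 it was 1 and without V replicate 3 it was 0 over the AHR lines, without SA replicate 2 it was 0 for SA against V, and without SD replicate 3 it was 1 for SD against V. The comparisons against V share the same 3 V libraries, and the median log2 fold change over the 6 genes was -0.04 in SA and -0.02 over the AHR lines, against -0.002 and -0.0007 over all tested genes.

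**Figure D3:**
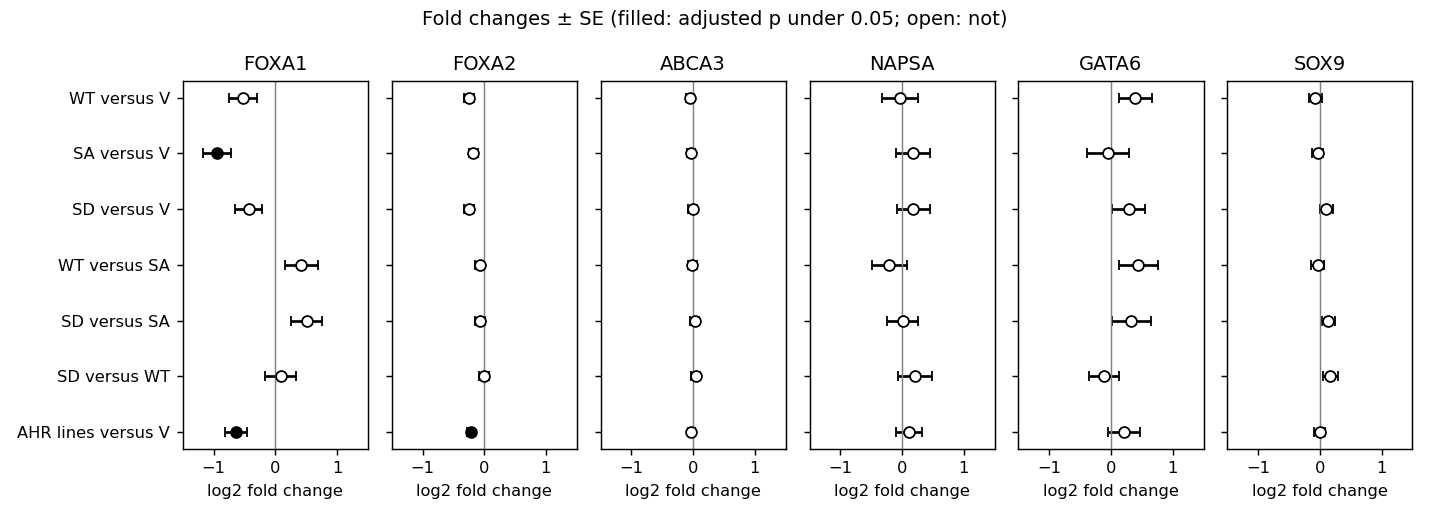
Log2 fold change of the 6 detected genes in each comparison, named as first line versus second, with the SE as bars; filled points had an adjusted p under 0.05 and open points did not. FOXA1 in SA versus V is the only filled point among single pairs of lines, and FOXA1 and FOXA2 are filled for the AHR lines together versus V.

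A wider list of 72 related genes put these values in their setting. Of these, 27 were silent by the same limit and 34 passed the filter on low counts across the 12 libraries. Besides SFTPB and SFTPD, the surfactant genes SFTPA1 and SFTPC had at most 1 and 3 counts in any library and SFTPA2 at most 4. The secretoglobins SCGB1A1, SCGB3A1 and SCGB3A2 of airway club cells had no count. FOXA3, the third forkhead gene of the family, was at a mean of 1.06 TPM and the liver factor HNF4A at 0.207 TPM, while GATA4, at 3.70 TPM, lay beside GATA6.

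Against V, related genes were called in every AHR line, mostly downward. Over the AHR lines 11 of 34 were called, 9 lower and 2 higher, in WT 7 of 33 (5 lower, 2 higher), in SA 9 of 34 (7 lower, 2 higher) and in SD 5 of 34 (all lower). As shares of the tested related genes these were 32.4%, 21.2%, 26.5% and 14.7%, beside 7.79%, 5.24%, 7.17% and 5.41% of all tested genes, for lists chosen with earlier results of these data known. The median log2 fold change over the tested related genes was -0.19, -0.21, -0.28 and -0.09 in that order, and over all tested genes it was within 0.003 of 0. These counts moved with single libraries: without V replicate 1 they were 3 in WT, 5 in SA and 2 in SD, without V replicate 2 they were 4 in SA and 6 over the AHR lines, and without SA replicate 3 the count was 5 in SA. Between the AHR lines edgeR called 0 of 32 in SD against WT, 0 of 32 in SD against SA and 0 of 34 in WT against SA, with 4, 3 and 4 under 0.05 unadjusted; DESeq2 called 1, 0 and 0.

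Of the 18 genes of the hepatic and gut list 10 were silent and 6 were tested over the AHR lines. Of these 6, 4 were called lower, the 3 fibrinogen chains and APOH, beside 7.79% of all tested genes called in either direction. All 6 had a log2 fold change below 0, with a median of -1.28. FGA, the fibrinogen alpha chain, was at 16.9, 10.3 and 14.3 CPM in V and 1.88 to 7.64 CPM in the libraries of the AHR lines, which did not overlap with V. It fell by 1.18 in WT (adjusted p = 0.000266), 1.96 in SA (adjusted p = 6.46e-06) and 1.56 in SD (adjusted p = 6.34e-06) on the log2 scale. These 3 calls held with any 1 library left out. FGG, the gamma chain, was at 1.91 to 4.22 CPM in V and 0.601 to 1.37 CPM in the AHR lines, and fell by 1.66 over them (SE 0.32, adjusted p = 0.000941). FGB, the beta chain, had 21 to 48 counts in V libraries, 10 to 29 in WT, 2 to 4 in SA and 4 to 22 in SD, and was called over the AHR lines (adjusted p = 0.000171), in SA and in SD but not in WT (adjusted p = 0.0905). The SD call was lost without V replicate 1, V replicate 3 or SD replicate 2, at up to 0.0826, and the beta chain values of WT and V overlapped. APOH, a plasma glycoprotein, was at 3.39 to 4.46 CPM in V and 0.972 to 2.57 CPM in the AHR lines (adjusted p = 0.0136), a call lost without V replicate 2 or V replicate 3, at up to 0.103.

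Of the 18 endoderm transcription factors, 12 were tested and over the AHR lines 3 were called lower and 1 higher, beside 7.79% of all tested genes. ELF3, an epithelial ETS factor, was at 158 to 177 CPM in V and 128 to 155 CPM in the AHR lines, a log2 fold change of -0.29 (SE 0.05, adjusted p = 8.96e-05). KLF5, a Krüppel-like factor of gut and lung epithelium, fell by 0.37 (SE 0.07, adjusted p = 0.000952). It was at 59.84 to 78.06 CPM in V and 46.45 to 60.9 CPM in the AHR lines. WT replicate 2 and SD replicate 2 overlapped the lowest V library. The calls of ELF3 and KLF5 over the AHR lines held with any 1 library left out. Line by line KLF5 was called in SA and SD but not in WT. Its SD call was lost in 3 of the fits that left out 1 library, at up to 0.211. NR5A2, a nuclear receptor of foregut endoderm, was higher by 0.32 (SE 0.08, adjusted p = 0.0114), and its call was lost without V replicate 1 or V replicate 2, at up to 0.0898. Its values were 32.7 to 37.98 CPM in V, 45.7 to 53.0 CPM in WT, 41.0 to 50.3 CPM in SA and 34.2 to 40.4 CPM in SD, so that SD overlapped with V.

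In the conducting airway list 5 of 8 genes were silent and 1 was tested, SOX2, the proximal airway factor, which fell by 0.75 over the AHR lines (SE 0.16, adjusted p = 0.00293) from 8.31 to 11.6 CPM in V to 4.90 to 8.55 CPM, with SD replicate 3 overlapping the lowest V library. Of the 10 alveolar type II genes 4 were tested and LPCAT1, a lipid-remodelling acyltransferase, was called lower (-0.14, adjusted p = 0.0289, lost in 6 of the fits that left out 1 library, at up to 0.113). Over the AHR lines edgeR and DESeq2 each called 0 of the 4 tested alveolar type I genes, with 1 under 0.05 unadjusted in edgeR. Of 7 tested lung branching genes 1 was called, ID2, an inhibitor of basic helix-loop-helix factors and a marker of distal tips, which was higher by 0.28 (adjusted p = 0.0346, lost in 5 of those fits, at up to 0.219). In WT and SA all 6 libraries of ID2 lay between 32.5 and 33.0 CPM, above the 22.9 to 27.8 CPM of V, and SD overlapped with V. Over the AHR lines 7.79% of all tested genes were called, and these lists held only 1 to 7 tested genes each.

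**Figure D4:**
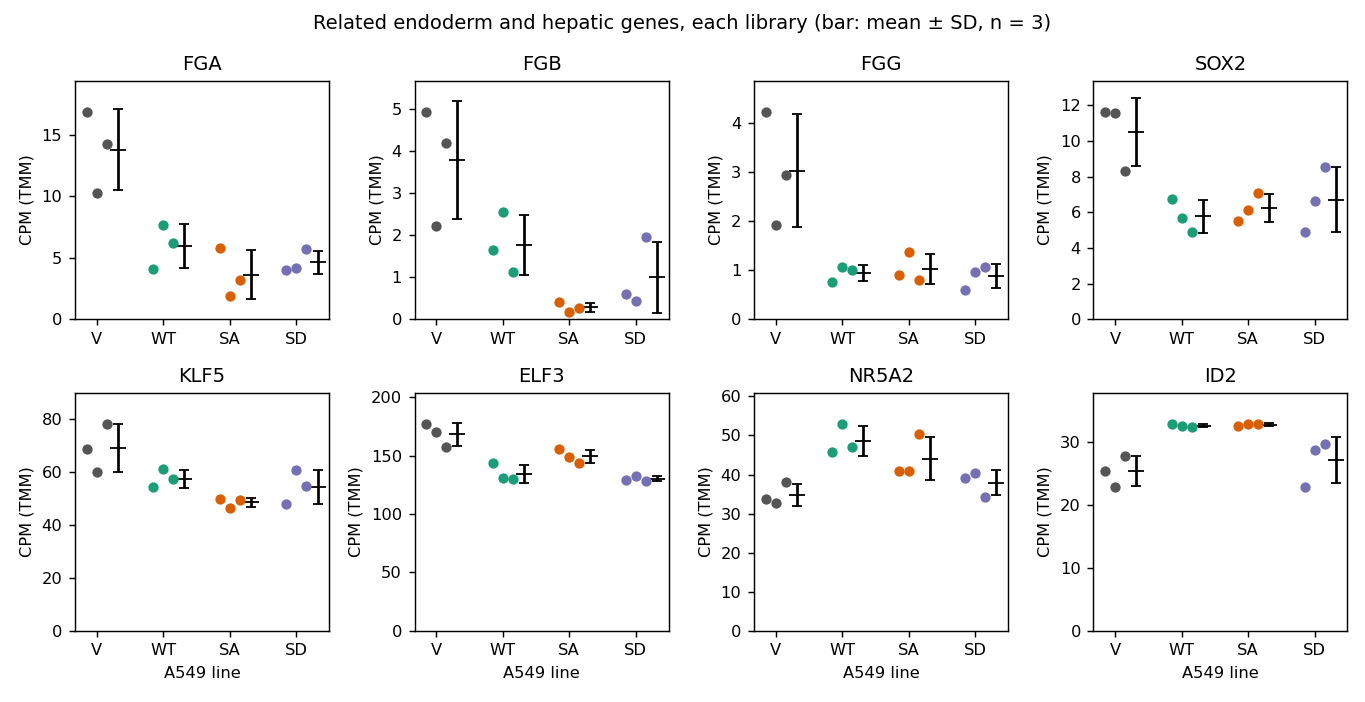
CPM of 8 related genes called in at least 1 comparison against V, in each library (points) of the V, WT, SA and SD lines, with the mean and SD of 3 libraries beside them (bars); axes start at 0. The fibrinogen genes FGA and FGG and the factor ELF3 have all V points above all points of the AHR lines, and NR5A2 and ID2 are higher in WT and SA than in V.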

How the data were processed

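A549 lines V, WT, SA and SD were profiled by poly(A) RNA-seq, 3 libraries each. The authors trimmed reads with Trimmomatic 0.39 and estimated counts with RSEM against GRCh38; the deposited values are expected counts per gene, and the annotation release and use of strand are not given in the sources used here. Expected counts were rounded to whole numbers. A deposited table of the authors' own comparisons, holding fold changes and p-values, was not used. Groups came from the sample titles.

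Each pair of lines was tested on its 6 libraries with edgeR 4.0.16 (R 4.3.3): filterByExpr with a minimum count of 10 and a minimum total of 15, TMM scaling, quasi-likelihood fit, and Benjamini-Hochberg adjustment over all tested genes, called at 0.05. The AHR lines were also averaged against V in 1 fit of 12 libraries. CPM values are TMM-scaled, with factors from 0.993 to 1.005. TPM values used exon lengths of GENCODE 44. The steps were tested on simulated counts. Replicates differed by more than counting noise in every line (chi-square per degree of freedom 2.50 to 6.88). Alternatives were DESeq2 1.42.0, other scaling and filters, a replicate block, and each library left out. Depth limits detection to about 3 counts per library.

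The members and lists were chosen with earlier results of these data known. Named were all 9 genes, the called related genes by adjusted p, fixed context genes, and the 2 genes nearest in profile to each called member. The further called related genes and the markers COL1A1 and CD14 were named after their values were seen. The values of some listed genes are not reported here.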

Additional observations from a re-analysis of the deposited data

How the results depend on the processing

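Over the 6 tested genes, direction changed only for values that passed no test. With 1 library left out, the log2 fold change of ABCA3 ran from -0.0892 to 0.0268 in SA against V, -0.0334 to 0.0827 in SD against SA, -0.0621 to 0.0414 in SD against V, -0.0154 to 0.0863 in SD against WT and -0.0751 to 0.041 in WT against SA. That of FOXA1 ran from -0.0569 to 0.27 in SD against WT. That of FOXA2 ran from -0.055 to 0.0357 in SD against WT. That of GATA6 ran from -0.54 to 0.28 in SA against V, -0.000775 to 0.82 in SD against SA and -0.21 to 0.0679 in SD against WT. That of NAPSA ran from -0.12 to 0.15 in SD against SA and -0.22 to 0.0594 in WT against V. That of SOX9 ran from -0.048 to 0.0599 over the AHR lines against V, -0.0823 to 0.0244 in SA against V, -0.13 to 0.0736 in WT against SA and -0.18 to 0.0337 in WT against V. With genes of at least 1 count tested, SOX9 over the AHR lines against V was 0.000673. The number of the 9 genes called ran from 0 to 1 in SA against V, 0 to 1 in SD against V and 0 to 2 over the AHR lines when 1 library was left out, and was 1 in WT against V (FOXA2) when at least 10 counts were required in every library. Related genes called ran from 3 to 9 in WT, 4 to 11 in SA, 2 to 6 in SD and 6 to 11 over the AHR lines, each against V. In SD against WT 1 related gene, NR5A2, was called with genes of at least 1 count tested, with at least 10 counts required in every library, by DESeq2 and with the replicate block (adjusted p = 0.00779, 0.0355, 0.0402 and 0.0179), and in WT against SA 1, FGB, with genes of at least 1 count tested (0.00801); the cause was not tested. Same-numbered libraries did not deviate together (correlations -0.05 to 0.10), so the numbers were not taken to pair them; with the replicate block as a pairing term 0, 0, 0, 0, 1, 0 and 2 of the 9 genes were called, as without it. DESeq2 size factors, DESeq2 and 1 fit over all 12 libraries changed no call among the 9 genes. For DESeq2 this says little between the AHR lines. It gave an adjusted p to only some tested members in SD against WT and SD against SA, and to none in WT against SA. Over the longest transcript the order of FOXA2, ABCA3 and SOX9 held, at 48.6, 29.2 and 18.0 TPM. Depth limits FOXA1, GATA6 and NAPSA, which had 19 to 69 counts per library.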

Other observations

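Several genes of lung and foregut lists that were detected but were in no called comparison had clear per-length levels in A549. CAV1, the caveolar coat gene also used as a marker of alveolar type I cells, was at 297.6 TPM (mean of 12 libraries), while PDPN and HOPX of the same list had no count in any library. CEBPA, a factor of type II cell maturation, was at 17.8 to 17.9 TPM in the means of the 4 lines. The ETS factors ETV4 and ETV5, which act downstream of fibroblast growth factor signals in the distal lung, were at 61.2 and 28.2 TPM. The level of the receptor gene FGFR2 was not clear, with 1 to 29 counts per library and the most in V replicate 1. It was at 0.151 TPM, and at 0.312 TPM over the longest transcript.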
